A study of Mus musculus with 12 samples.

Results

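The livers of 3 wild-type C57BL/6 mice were described here by how densely ribosomes covered their mRNAs. Each mouse gave a library of ribosome footprints and a library of total RNA from the same extract, and the 6 libraries of these mice, out of 12 in the series, were chosen by genotype and library type and not by any measured value. All 11587 genes with a score were kept. The question was which mRNAs of a normal liver carry many ribosomes for their amount and coding length, and which carry few.

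The series set these mice beside 3 Maf1 KO mice, which lack a factor that holds RNA polymerase III in check and enter below only in 1 paragraph. By the labels all mice were 12 to 14 weeks old, refed and killed at 9 PM, whereas the methods describe livers of 12 weeks with free access to food. By the methods, liver lysate was spun at 3000 rpm and its supernatant went into both libraries. The lysate came from hepatocytes and all other cells of the organ.

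A translating ribosome shields a short stretch of mRNA from RNase, and sequencing these protected pieces shows where and how often coding sequences are being read. Because an abundant mRNA gives more footprints than a rare one, footprints are set against total RNA, and the ratio is called translation efficiency. It depends mostly on how often ribosomes start on an mRNA, and short upstream reading frames, protein-binding hairpins and the length of the coding sequence are known to bear on it. The liver is a secretory and metabolic organ whose most abundant mRNAs encode plasma proteins and enzymes.

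For translation efficiency, the centred total RNA score of a mouse was subtracted from its centred footprint score on the log2 scale, each library having been centred on its median over genes. A value of 0 is that of a gene as far from the library median in footprints as in total RNA, and each unit is a doubling. The scores were the authors' log2 normalized tag counts. Low scores multiplied by coding length fell mostly near steps of 1 tag (60.9 to 73.3% of low values lay within 0.1 of a whole number of tags). The size of a step was fitted to these same low values, so their fit is no separate test. On this basis the scores were taken to be per coding length and levels of different genes were compared. By these steps the median gene with 1 transcript had roughly 290 to 547 tags in the footprint libraries and 513 to 552 in total RNA. The median SD of translation efficiency between mice was 0.42 in the quintile of genes with the fewest footprints and 0.22 in the quintile with the most. Across genes, which are not independent replicates, translation efficiency of WT1 and WT2 correlated with Pearson's r = 0.88, of WT1 and WT3 with 0.82 and of WT2 and WT3 with 0.84.

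The libraries of mouse WT3 stood apart from those of WT1 and WT2. In WT3, 108 genes lay more than 2 log2 units from the mean of the other mice, against 63 for WT1 and 57 for WT2. Saa1, a serum amyloid made in the acute phase, had footprint scores of 11.8 in WT1, 10.3 in WT2 and 14.8 in WT3 but total RNA scores of 11.9, 9.95 and 9.80. For Nnmt, which methylates nicotinamide, footprint scores were 10.7, 10.8 and 13.6 and total RNA scores 11.7, 11.6 and 8.10, so that the highest footprint score went with the lowest RNA score. Serpina12, the adipokine vaspin, moved the other way, with footprint scores of 10.3, 10.3 and 7.25 and total RNA scores of 11.9, 12.0 and 11.4. Amy2a5 and Cela1, the 2 of 23 exocrine pancreas markers that had a score, together reached a summed footprint score of 13.5 in WT3 against 8.52 and 9.63, with total RNA at 9.07, 8.98 and 8.61 in WT1, WT2 and WT3. Kupffer cell markers, 15 of 15 measured, summed to 13.3, 13.5 and 14.6 in footprints and to 14.4 in each total RNA library. Hepatocyte, endothelial and stellate cell markers were also highest in the WT3 footprints, and the median score of that library was itself higher, at 8.02 against 7.37 and 7.48. Their part in the results was not tested. Where leaving out 1 mouse moved the count of a list by over 1.5 times, the count without that mouse is given.

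**Figure D1:**
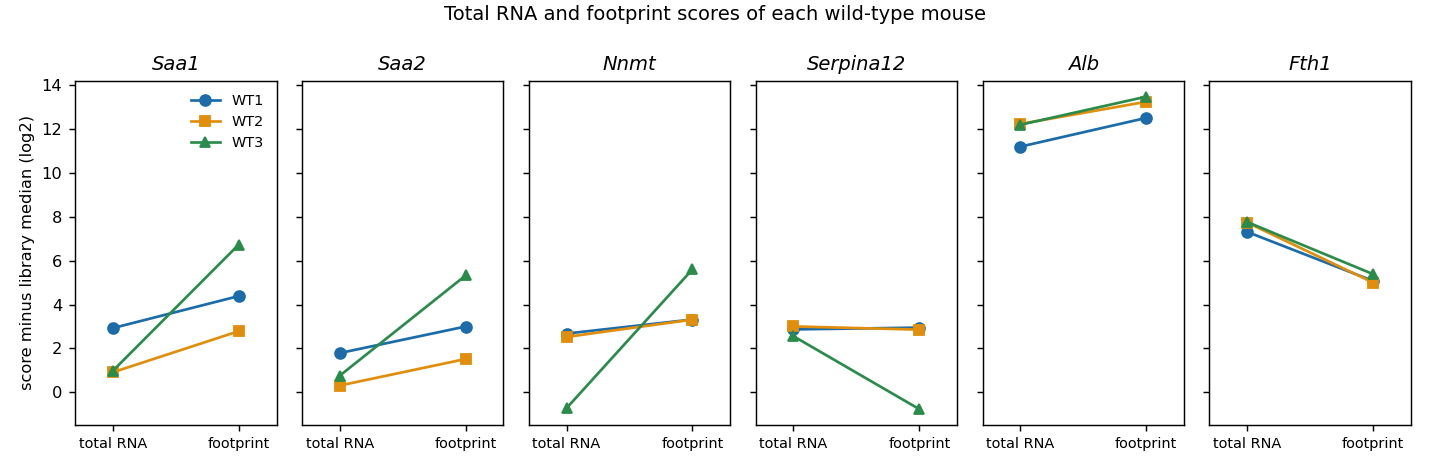
Total RNA and footprint scores of 6 genes, each as the difference from the median of its library (log2, vertical axis), with 1 line per wild-type mouse. The lines of Saa1, Saa2, Nnmt and Serpina12 run in another way in WT3 than in WT1 and WT2, whereas those of Alb and Fth1 are close to parallel in the 3 mice.

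Translation efficiency spread widely in normal liver. The 5th and 95th percentiles of genes lay at -1.76 and 1.47, a 9.41-fold difference, with a median of 0.16. By limma over all genes with Benjamini-Hochberg adjustment, 1753 genes (15.1%) had a high translation efficiency, meaning a mean of at least 1 and an adjusted p under 0.05, and 1713 (14.8%) had a low one, at or below -1. In 939 of the high genes and 1123 of the low genes every mouse was past that size. Without WT3 the counts were 1685 and 1694, of which 1496 and 1542 were genes of the first calls. High genes also had more RNA, with a median total RNA score of 9.61 against 8.45 in low genes and 8.96 in all genes, a comparison in which the RNA score enters both sides.

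How abundant mRNAs were placed depended on the scaling of the libraries. After quantile normalization, which gives all libraries the same distribution, 1318 genes were high and 1450 low, and 992 and 1244 of these were genes of the first calls. The median of hepatocyte markers moved from 0.90 to -0.18 and that of carrier and other plasma proteins from 1.20 to 0.11, against 0.16 and 0.05 for all genes. The uORF list moved from -1.24 to -1.58 and histones from 1.46 to 1.21. Most high calls in lists of abundant liver mRNAs were thus lost under this scaling, and values by quantile normalization are given beside the lists and named genes they moved most.

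**Figure D2:**
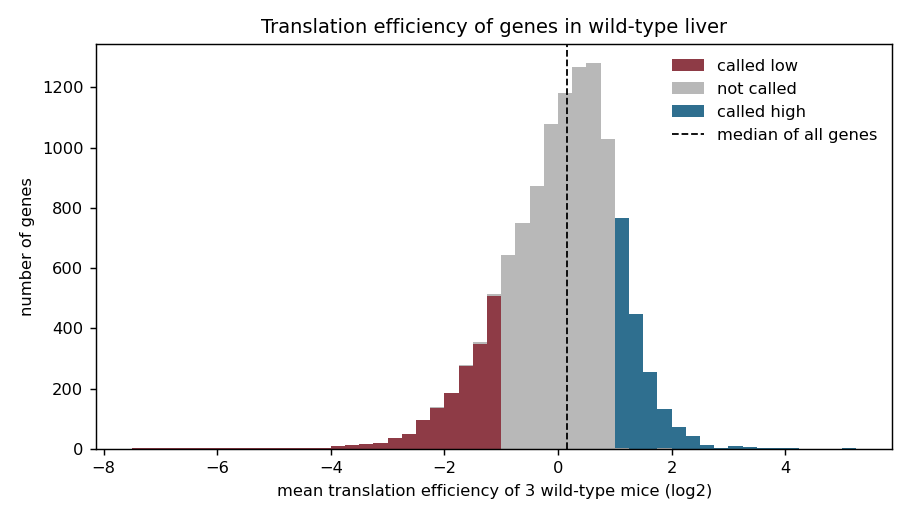
Histogram of mean translation efficiency over 3 wild-type mice (log2, horizontal axis) for 11587 genes, in bins of 0.25. Genes called high (1753) and low (1713) are coloured, and the dashed line marks the median of 0.16.

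The highest values among well-expressed genes belonged largely to short mRNAs and to members of multigene families. Ubl5, a small ubiquitin-like protein that takes part in splicing, had footprint scores of 13.2, 14.6 and 15.0 and total RNA scores of 12.0, 12.6 and 11.9 in WT1, WT2 and WT3. Footprints exceeded RNA in each mouse even before centring, and its translation efficiency was 3.42 ± 0.61 (SD, n = 3), or 10.7-fold high (adjusted p = 0.00011). Fkbp1a, the prolyl isomerase that binds rapamycin, reached 3.01 ± 0.57, Rnasek, a small membrane protein tied to the proton pump, 3.06 ± 0.52, and Dap, a death-associated protein that restrains autophagy, 2.68 ± 0.48. The other 6 of the 10 highest were Serpina3i (3.75), Gsta1 (3.48), H2-Q2 (3.44), Gsta2 (3.15), Saa1 (3.03, or 1.67 without WT3) and Hist1h4f (2.75). These 6 share between 25.1 and 96.3% of the 30-base words of their coding sequence with other genes, and the sources used here do not say how tags that fit several genes were divided, so their values are uncertain. The median coding length of the 10 was 411 bases, against 1392 bases for all matched genes, and 1 of the 10, Serpina3i, had an ATG in its annotated 5′ UTR.

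Of the 10 lowest genes above the median RNA level, 9 had a reference match, with a median coding length of 1749 bases. Ccni, cyclin I (chr5:93610959-93635521, minus strand, NCBIM37), had footprint scores of 6.20, 6.19 and 5.91 against total RNA scores of 11.1, 11.5 and 10.9. Translation efficiency was far below 0 in every mouse, at -3.23, -3.73 and -4.22, and the mean was 13.2-fold low (adjusted p = 0.00011). Vps54, a subunit of the complex that tethers vesicles returning to the Golgi, stood at -3.77, -3.36 and -3.48. The kinase gene Csnk1g2 had a mean of -3.53, the Wnt co-receptor gene Ryk -3.51, the transcriptional co-regulator gene Tcf20 -3.48, the membrane ubiquitin ligase gene March2 -3.82 and Atxn7l3, of the deubiquitinating module of SAGA, -3.29. RIE2, which had no match in the reference, stood at -3.31. Fam193b (-4.59) rested on about 7 tags in the WT3 footprint library and was at -3.62 without it. Rsc1a1 was lowest of the 10 at -5.27, but its coding sequence lies wholly within the gene Ddi2 on the same strand, so its RNA tags cannot be told from those of Ddi2. All 7 of these genes with an annotated 5′ UTR held at least 1 upstream ATG, compared with 48.7% of all genes with a 5′ UTR.

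Upstream ATGs open short reading frames that ribosomes meet before the coding sequence, and the shortest of them are printed here for 4 of these mRNAs because they show how small such frames are. Sequences were read from the NCBIM37 genome and its GENCODE annotation on the strand of the gene, with the start and stop triplets in capitals. The frame of March2 lies at chr17:33846888-33846905 (minus strand), that of Vps54 at chr11:21139322-21139342 (plus), that of Csnk1g2 at chr10:80097112-80097123 (plus) and that of Ccni at chr5:93635029-93635040 (minus).
March2: ATGggcctcaggcccTGA
Vps54: ATGgaggcggcggtgcacTAG
Csnk1g2: ATGgtgtacTAG
Ccni: ATGaggtggTAA
They encode 5, 6, 3 and 3 codons before the stop and begin 40, 73, 88 and 145 bases before the start codon. A frame of at most 30 bases that closes within the 5′ UTR was present in 27.0% of 10558 genes, so that their presence is not rare. In windows of one length, the first 150 bases of 5622 longer 5′ UTRs, 51.6% held an ATG on the mRNA strand and 56.1% on the other strand.

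mRNAs whose upstream reading frames are known to control them in the integrated stress response were among the poorly translated. Of 13 such mRNAs, 7 were low and 0 high (14.8 and 15.1% of all genes), with a median of -1.24 against 0.16 for all genes. Atf4, the transcription factor at the centre of this response (chr15:80085614-80087970, plus strand), had footprint scores of 8.60, 8.81 and 9.16 and total RNA scores of 11.9, 11.9 and 11.7. Its translation efficiency was -1.68, -1.48 and -1.76, close together in the 3 mice, or 3.11-fold low (SE 0.14, adjusted p = 0.00014). Ppp1r15a, the regulatory subunit that returns phosphorylated eIF2 to its active state, was lower still at -2.71 ± 0.40, although its footprint values rested on about 17 to 67 tags. Its constitutive counterpart Ppp1r15b was at -1.24, and Ddit3, the CHOP transcription factor, at -2.59 with as few as 12 tags. Ibtk was at -2.30, Ifrd1 at -1.70 and Slc35a4 at -3.14. Atf5, the other bZIP factor of this response, was at -0.89 (adjusted p = 0.00365), short of the size threshold.

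The upstream frames of the stress response mRNAs start at 1 codon, in Ppp1r15a, and 1 frame of at most 30 bases is shown for each of 3 mRNAs. They lie at chr15:80086012-80086023 (plus) for Atf4, chr7:52781221-52781238 (minus) for Ppp1r15a and chr1:135028045-135028071 (plus) for Ppp1r15b.
Atf4: ATGgcgtatTAG
Ppp1r15a: ATGgcttatttggtcTGA
Ppp1r15b: ATGgtggagcgatctcacacggccTAG
The Atf4 frame has 3 codons and begins 99 bases before the annotated start codon of a coding sequence of 1146 bases. That annotation holds 1 upstream ATG for Atf4, and the 5′ UTR of Ppp1r15a has 7 in all. Frames that run into the coding sequence were not printed, and which frames control these mRNAs was not tested here. Not all mRNAs of the list were poorly translated. Cebpa, the hepatocyte factor C/EBP alpha, has an upstream frame too and was at 0.20, 0.37 and -0.68 in WT1, WT2 and WT3, on both sides of 0 (mean -0.04, adjusted p = 0.88). Cebpb was the only member above 0, at 0.97 (adjusted p = 0.00154), under the size threshold. After quantile normalization 9 of the 13 were low, Cebpa among the negative values at -0.81 (adjusted p = 0.0125) and Cebpb at 0.28 (adjusted p = 0.179). Without WT3 the list had 8 low and 1 high, and without WT2 7 low and 1 high.

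Polyamine synthesis is held in check partly through translation. Odc1, ornithine decarboxylase, the first enzyme of the pathway, had total RNA scores of 11.52, 11.01 and 10.43 but footprint scores of 7.45, 6.71 and 6.86. Its translation efficiency was -2.44, -2.74 and -2.77, or 6.26-fold low (SE 0.16, adjusted p = 0.00011). Azin1, the inhibitor of the antizyme that degrades Odc1, was at -2.36, -1.54 and -1.91. The remaining 3 of 5 measured members, Amd2, Sat1 and Smox, were at -0.89, -0.87 and -0.20, of which Amd2 shares 96.9% of its words with another gene. Without WT2, 4 of the 5 were low. Both low mRNAs carry upstream frames, of which these are the shortest.
Odc1: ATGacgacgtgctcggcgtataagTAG
Azin1: ATGatagggggttccatctccTAA
The first lies at chr12:17551727-17551753 (plus), 362 bases before the start codon, and the second at chr15:38444237-38444260 (minus), 288 bases before it.

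**Figure D3:**
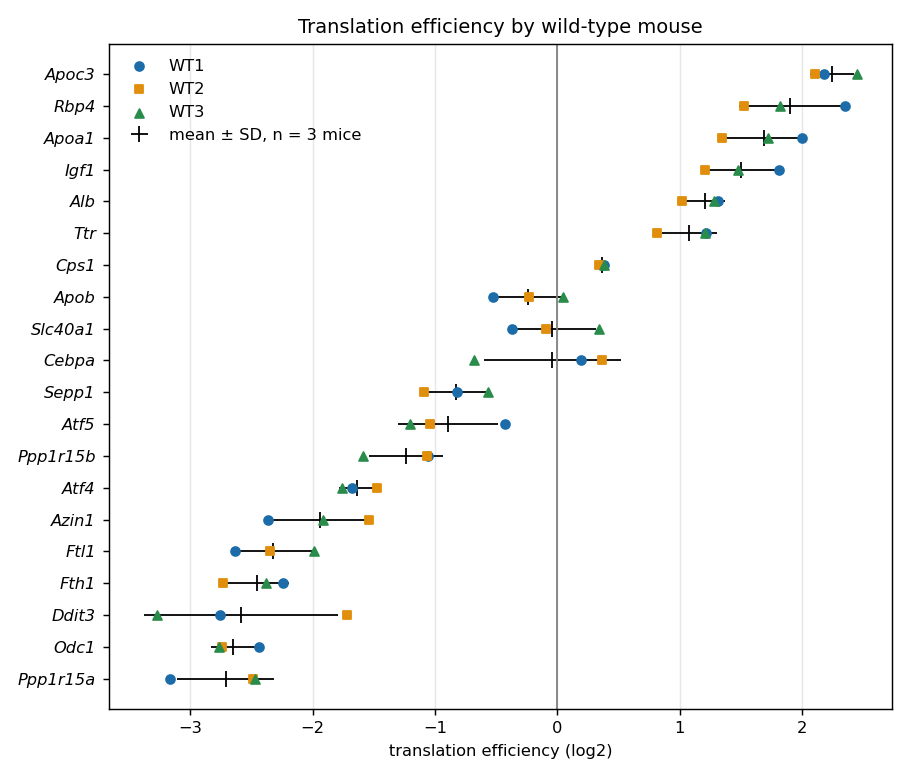
Translation efficiency (log2, horizontal axis) of 20 mRNAs in each wild-type mouse, with the mean and SD of 3 mice. Fth1, Ftl1, Odc1, Ppp1r15a, Ddit3 and Azin1 lie below -1.5 in all 3 mice, whereas Apoc3, Rbp4, Apoa1 and Igf1 lie above 1 in all 3.

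Ferritin mRNAs were abundant and carried few ribosomes for their amount and coding length. Ferritin stores iron, and iron regulatory proteins bind a hairpin in the 5′ UTR of its mRNAs, the iron responsive element, and block ribosome entry when iron is scarce. Fth1, the heavy chain (chr19:10057193-10059582, plus strand), had total RNA scores of 16.3, 16.8 and 16.6, far above the median of 8.96, and footprint scores of 12.4, 12.5 and 13.4. Its translation efficiency was -2.24, -2.74 and -2.38, or 5.47-fold low (SE 0.14, adjusted p = 0.00011). Ftl1, the light chain, was at -2.64, -2.35 and -1.99, 5.01-fold low (SE 0.15), with 88.5% of its words shared with other genes. Of 9 measured mRNAs with a known element in either UTR, 3 were low and 0 high (14.8 and 15.1% of all genes). The low ones include the kinase gene Cdc42bpa (-2.38).

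Slc40a1 and Alas2, which also hold a hairpin of this kind in the 5′ UTR, were not called low. Slc40a1, ferroportin, which exports iron from cells, had total RNA scores of 11.4, 11.6 and 11.3 and footprint scores of 9.35, 9.99 and 10.9. Its translation efficiency was -0.37, -0.09 and 0.34, around 0 (SE 0.16, adjusted p = 0.84), and -0.54 after quantile normalization (adjusted p = 0.0171). Alas2, the first enzyme of haem synthesis in red cells, was at -0.47 (adjusted p = 0.0242), short of the size threshold. The hairpins are printed with the bulged C and the 6-base loop in capitals, and the bases between and after them form the stem.
Fth1: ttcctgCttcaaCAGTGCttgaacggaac
Ftl1: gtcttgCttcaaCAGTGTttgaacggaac
Slc40a1: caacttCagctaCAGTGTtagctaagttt
They lie at chr19:10057222-10057250 (plus), chr7:52715149-52715177 (minus) and chr1:45982310-45982338 (minus). The bulged C is base 36 from the annotated 5′ end of Fth1, base 84 of Ftl1 and base 108 of Slc40a1. The motif searched, on both strands, was an unpaired C, a stem of 5 base pairs and the loop CAGTGN. It was found in 14 of 10558 5′ UTRs, and in the first 150 bases of 0.125% of the 5622 longer ones, or 0.0178% on the other strand. The other genes with a match ranged from Vti1b at -1.54 to Serpina3g at 2.40, and whether their matches bind any protein was not tested.

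Plasma proteins, the main export of the hepatocyte, had high values on centred scores, and most of these calls were lost after quantile normalization. Of 39 mRNAs for carrier and other plasma proteins, 25 were high and 0 low (15.1 and 14.8% of all genes), with a median of 1.20, and 4 were high and 1 low after quantile normalization. Alb, serum albumin (chr5:90889915-90905629, plus strand), had footprint scores of 19.9, 20.7 and 21.5 and total RNA scores of 20.2, 21.3 and 21.0. It was at 1.31, 1.02 and 1.28, or 2.30-fold high (SE 0.21, adjusted p = 0.00193). After quantile normalization Alb was at 0.32 (adjusted p = 0.143), and without WT1 at 1.15 (adjusted p = 0.0644). Apolipoproteins spanned the whole range of the list. Apoc3, an inhibitor of lipoprotein lipase, was highest at 2.24 ± 0.18 (4.74-fold), and Apoa1, the main protein of HDL, stood at 1.69 ± 0.33. Apob, the scaffold of VLDL with a coding sequence of 13518 bases, was lowest at -0.52, -0.23 and 0.05 (adjusted p = 0.213), but its value depended on the processing, at -0.88 for the top transcript, -1.24 after quantile normalization, -0.42 with the filter on low values and -0.38 without WT3 (adjusted p from 0.00114 to 0.0471). Rbp4, which carries retinol, was at 1.90 and Ttr, its partner transthyretin, at 1.08. The hormones Igf1 and Hamp, hepcidin, were at 1.50 and 1.21, and Hamp, with 40.4% of its words shared, was uneven between mice (1.49, 0.39 and 1.74). Ttr and Hamp were at 0.093 and 0.074 after quantile normalization.

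Coagulation and complement mRNAs, which encode longer proteins, had 9 of 40 high and 0 low (15.1 and 14.8% of all genes), with a median of 0.70. After quantile normalization 0 were high and 1 low. Serpinf1 (1.38) and Plg, plasminogen (1.29), led them, and Hc, complement C5, was at -0.23 (adjusted p = 0.348), but at -0.51 without WT3 and -1.02 after quantile normalization (adjusted p = 0.0148 and 0.00492). Plg was then at 0.37. Acute phase mRNAs had 17 of 23 high and a median of 1.29, which was 1.24 in WT1, 0.95 in WT2 and 1.81 in WT3. Without WT3, 12 of them were called, and 7 after quantile normalization. Orm3, an orosomucoid, was at 2.05, 2.43 and 2.56 and so did not rest on WT3, whereas Cp, ceruloplasmin, was at 0.30 (adjusted p = 0.0979) or -0.58 after quantile normalization. The major urinary proteins, pheromone carriers made in male liver in large amounts, had 5 of 19 high (1 after quantile normalization) and a median of 0.69 in WT1, 1.16 in WT2 and -0.05 in WT3. All 19 share coding words with other Mup genes, and Mup1 gave 0.45, 1.10 and -0.17, or a mean of 0.77 without WT3 (adjusted p = 0.0104).

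**Figure D4:**
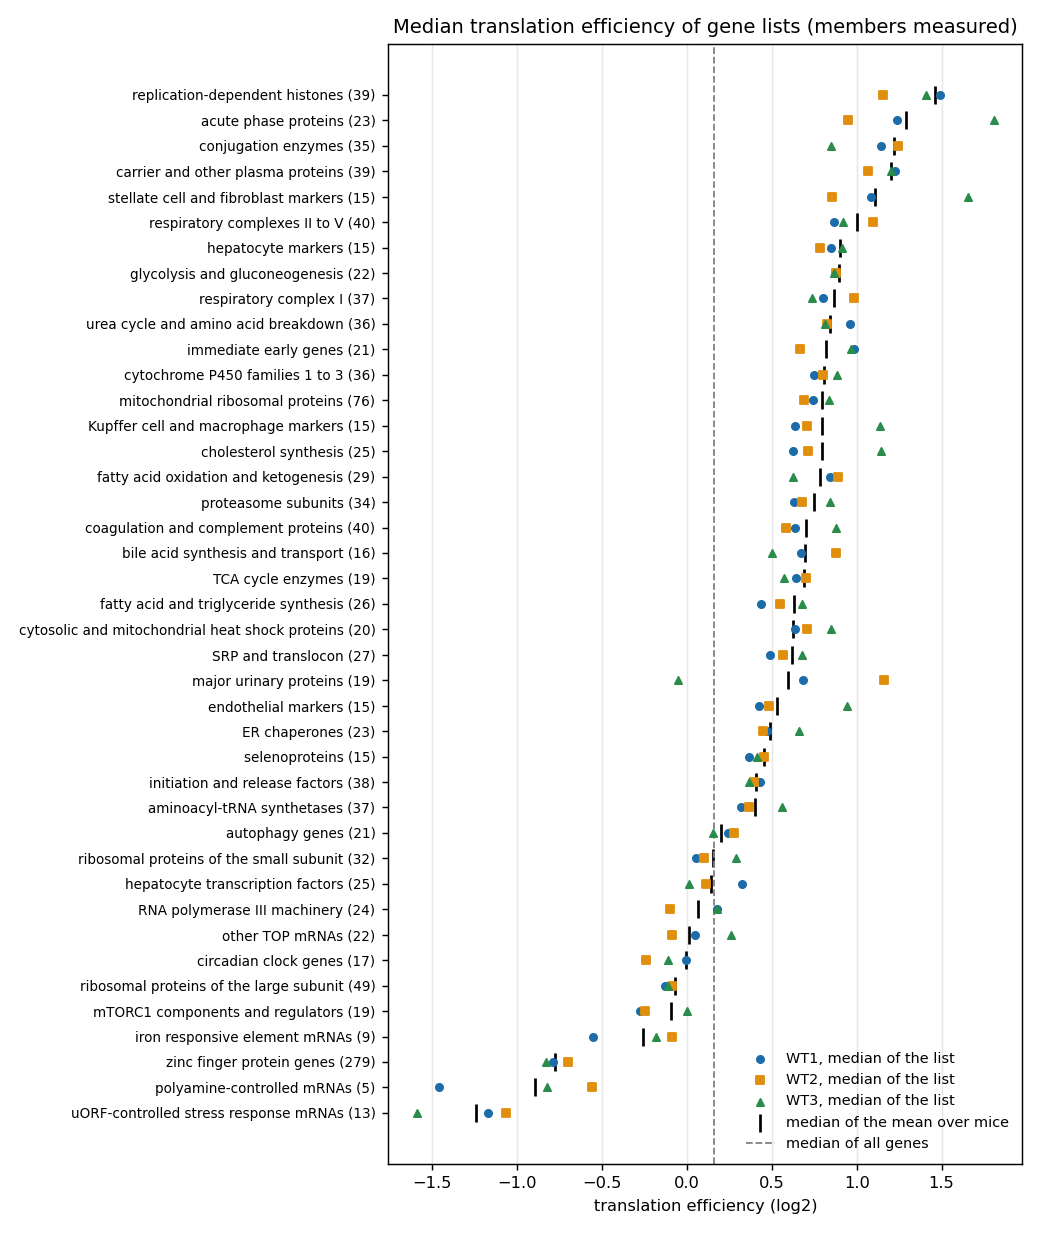
Median translation efficiency on centred scores (log2, horizontal axis) of 41 gene lists with at least 5 measured members, with 1 symbol per wild-type mouse and a bar for the median of the means. The dashed line is the median of all genes, 0.16, and histones and secreted or metabolic proteins lie to the right of it, zinc finger, polyamine and stress response mRNAs to the left.

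The mRNAs for oxidative phosphorylation lay above the median of all genes across the complexes on centred scores. Of nuclear-encoded subunits of complex I, 15 of 37 were high and 0 low (median 0.87), against 15.1 and 14.8% of all genes. Of complexes II to V 20 of 40 were high and 0 low (median 1.00). After quantile normalization 3 and 5 were high, with medians of 0.16 and 0.23 against 0.05 for all genes. Cox6a1, of cytochrome oxidase, led at 2.88, 2.64 and 2.25, followed by Cox7a2 (2.21), Ndufa11 (2.11) and Ndufs7 (1.89). Not all subunits were high. Ndufs1, the large iron-sulfur subunit, was at 0.14 (-0.45 after quantile normalization) and Uqcrb, of complex III, at -0.42 (adjusted p = 0.0219). Subunits of the mitochondrial ribosome had 27 of 76 high and 0 low with a median of 0.80 (9 and 0.39 after quantile normalization), led by Mrps34 (2.29). Of 13 mitochondrially encoded mRNAs only mt-Nd4 had a score, and it was low at -1.53, -1.80 and -0.65. No comparison with the nuclear-encoded mRNAs is drawn from this 1 gene. Median coding lengths of these lists were short, 450, 408 and 585 bases.

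On centred scores, metabolic enzymes had a median above that of all genes in every pathway examined, although not all pathways held more high genes than the 15.1% of all genes. Glycolysis and gluconeogenesis had 8 of 22 high and a median of 0.90, urea cycle and amino acid breakdown 13 of 36 (0.84), fatty acid oxidation and ketogenesis 11 of 29 (0.78), cholesterol synthesis 7 of 25 (0.79, 11 without WT1), fatty acid and triglyceride synthesis 8 of 26 (0.63), bile acid synthesis and transport 3 of 16 (0.70, 5 without WT3) and the TCA cycle 2 of 19 (0.69), with 0 low in each. The shares ran from 10.5% in the TCA cycle and 18.8% for bile acids to 37.9% in fatty acid oxidation. After quantile normalization 5, 0, 0, 2, 2, 0 and 1 members of these lists, in the same order, were high, and their medians lay between -0.15 and 0.31. Gnmt, which consumes excess methyl groups, had values of 1.91, 1.72 and 1.74, a 3.45-fold difference with little spread. Tat, tyrosine aminotransferase, was at 1.64, Acads at 1.36, and Mdh2, malate dehydrogenase, at 1.49. Cps1, the entry enzyme of the urea cycle and among the most abundant liver mRNAs, was at 0.38, 0.34 and 0.38 (adjusted p = 0.0416), and at -0.60 after quantile normalization. Dhcr7 led cholesterol synthesis at 1.65. Scd1 and Scd2, which desaturate fatty acids, reached 1.63 (0.66 after quantile normalization) and 2.46 and share 37.8 and 33.1% of their words. Lpin2, which makes diacylglycerol, was at -0.87 (adjusted p = 0.000913), short of the size threshold. Gapdh (1.40, 2.22 and 2.38) and Pgam1 (2.02) share 100 and 87.8% of their words with gene copies, so their values are uncertain.

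Enzymes that dispose of foreign compounds had a similar range. Conjugation enzymes had 18 of 35 high (median 1.22) and cytochromes P450 of families 1 to 3 had 15 of 36 high (median 0.81). The low count was 0 in each, against 15.1% high and 14.8% low of all genes. For cytochromes P450 it was 1 without WT2 and 1 without WT3. After quantile normalization 8 and 2 were high. In these lists 16 and 27 members share more than 10% of their words with other genes. Cyp1a1, which oxidizes polycyclic aromatics, was at 2.17, 2.38 and 1.42. Cyp2r1, the first hydroxylase of vitamin D, was at -0.92 (adjusted p = 0.00658). Of the 16 mRNAs for bile acid synthesis and transport, 14 were above 0 and 2 below. The bile acid uptake carrier Slc10a1 was high at 1.25, 1.56 and 1.69. Below 0 were the bile salt exporter Abcb11 and the phospholipid translocator Abcb4, both at -0.75 (adjusted p = 0.00392 and 0.00354). The coding sequences of Abcb11 and Abcb4, at 3966 and 3831 bases, are longer than the 1089 bases of Slc10a1.

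On centred scores, components of the translation apparatus lay near the middle. Of cytosolic ribosomal protein mRNAs, which begin with a terminal oligopyrimidine (TOP) tract that places them under mTORC1, 3 of 32 of the small subunit were high and 4 low (median 0.15), and 2 of 49 of the large subunit were high and 6 low (median -0.07), shares below the 15.1 and 14.8% of all genes. After quantile normalization 11 and 15 were low and 1 and 0 high, with medians of -0.51 and -0.69 against 0.05 for all genes. Of all 11587 genes, 1450 were low under that scaling. Without WT1 or WT2 the large subunit had 1 high. They include very abundant mRNAs, with median total RNA scores of 12.8 and 12.4. Rplp0 was at -1.55, -1.50 and -1.57, among the most even values between mice, whereas Rps16 was at 2.21, 1.87 and 3.31. In all, 19 of 32 and 33 of 49 share words with gene copies, Rplp0 among them (64.0%) and Rps16 not. Other TOP mRNAs had 1 of 22 high and 0 low, or 0 and 5 after quantile normalization, with a median of -0.61 after it. Eef1a1, the elongation factor that delivers tRNA, was at -0.07, -0.15 and 0.03 (adjusted p = 0.691), Eef2 at 0.52, Tpt1 at -0.20 and Pabpc1, the poly(A)-binding protein, at -0.79 (adjusted p = 0.00317). After quantile normalization Eef1a1 was at -1.10, Eef2 at -0.35 and Tpt1 at -1.03. Of the TOP list the initiation factor subunit Eif3k was the high member at 1.40.

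Against 15.1% high and 14.8% low of all genes, initiation and release factors had 4 of 38 high and 2 low (median 0.41). Their low count was 4 without WT2, 1 without WT3 and 5 after quantile normalization. Aminoacyl-tRNA synthetases had 3 of 37 high and 0 low with a median of 0.40. With all mice and centred scores, both shares were below those of all genes in these lists. The same held for mTORC1 components and the RNA polymerase III machinery. Eif3i (1.83) and Eif5a (1.37), which resolves stalled ribosomes, were high. Eif4g2, a scaffold related to eIF4G, was low at -1.93, -1.80 and -1.58, and Eif4ebp2, a repressor of cap binding, at -1.13 (-0.93 without WT3, under the size threshold). Among mTORC1 components, 2 of 19 were high and 2 low (10.5% each), or 1 low without WT3. Rraga, a lysosomal GTPase that signals amino acids to mTORC1, was at 1.38 and Rps6kb1, S6 kinase, at -0.81 (adjusted p = 0.00357). The RNA polymerase III machinery had 2 of 24 high (8.33%) and 3 low (12.5%), or 1 and 2 without WT3, and a median of 0.06. Polr3k was at 1.12, Gtf3a, the 5S gene factor, at -1.37 and Brf1 at -1.03 (-0.72 without WT3). The value of Gtf3a rested on about 44 to 74 footprint tags, and its coding sequence lies wholly within the gene Mtif3 on the other strand.

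Autophagy genes lay on both sides. Ulk2, an initiating kinase, was low at -3.07, -2.55 and -2.98 (7.29-fold) and Becn1, of the lipid kinase complex, at -1.75. In contrast Gabarap and Atg12, small ubiquitin-like proteins of the conjugation step, were high at 2.13 and 1.96. In all, 6 of 21 were high and 2 low (2 and 2 after quantile normalization), with a median of 0.20. Against 15.1% high and 14.8% low of all genes, proteasome subunits had 4 of 34 high, or 11.8% (median 0.75), ER chaperones 5 of 23 high and 1 low (0.49), heat shock proteins 8 of 20 high (0.63) and the secretory targeting machinery 5 of 27 high, or 18.5%, and 1 low (0.62, 0 low without WT3). After quantile normalization 0, 1, 2 and 1 were high. Calr, calreticulin, was at 1.88, 1.71 and 1.76, Hspa5, BiP, at 1.13 (0.21 after quantile normalization), Hspb1 at 1.86 and Sec61a1, the translocon pore, at 1.58. Edem1, which sorts misfolded glycoproteins, and Srpr, a receptor subunit for the signal recognition particle, were low at -1.16 and -1.04.

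Selenoproteins read a UGA stop as selenocysteine. Sepp1, the plasma selenium carrier with several such codons, had total RNA scores of 17.16, 17.82 and 17.37 and footprint scores of 14.71, 15.17 and 15.99. It lay at -0.82, -1.09 and -0.57 (SE 0.16, adjusted p = 0.0028), below the plasma protein list but short of the size threshold. Gpx1, glutathione peroxidase, was at 0.60 (adjusted p = 0.0119) but at -0.56 after quantile normalization, Sepx1, a methionine sulfoxide reductase, at 1.14 (0.26 after it) and Selk, an ER membrane selenoprotein, at -1.33. Of 15 measured, 2 were high and 1 low, or 13.3 and 6.67%, near or below the 15.1 and 14.8% of all genes.

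Regulatory proteins differed by class, and their counts stand against 15.1% high and 14.8% low of all genes. Zinc finger genes, a large family of DNA-binding proteins, had 109 of 279 low and 4 high, or 71 and 9 after quantile normalization. Their median was -0.78, and it was -0.79, -0.70 and -0.83 in WT1, WT2 and WT3. These genes had few footprints, with a median footprint score of 5.36 against 7.63 for all genes. The filter on low values left 79 of them, with 16 low and 1 high, against 906 and 886 of 8008 genes. Zfp238 (-2.72) and Zfp106 (-2.43) were lowest among those well expressed. Their median coding length was 1719 bases. Hepatocyte transcription factors had 1 of 25 high and 0 low, or 2 high without WT1 and 4 without WT2. Foxa3 was at 0.99 and Nr1h3, the oxysterol receptor LXR alpha, at -0.64 (adjusted p = 0.00435). Immediate early genes, transient regulators with short-lived mRNAs, had 10 of 21 high and 0 low (median 0.82). Jun was at 1.32, 1.18 and 1.41, and Jund was at -0.78 (adjusted p = 0.00498). In the circadian clock Clock was low at -2.44, -1.88 and -1.84 and Nr1d2 at -1.16, whereas Bhlhe40 was high at 1.16, with 2 of 17 high and 3 low, or 1 high without WT1. Per1 was at -0.35, -0.42 and 0.88. Replication-dependent histone mRNAs, which end in a stem-loop in place of a poly(A) tail, had 31 of 39 high and 0 low (23 high after quantile normalization), with a median of 1.46 and a median coding length of 381 bases. In this list 36 members share words with gene copies, which makes single members uncertain. Of 3 transcripts known to be kept in hepatocyte nuclei, Nlrp6 (-2.33) and Gcgr, the glucagon receptor (-1.41), were low. Mlxipl, the glucose-sensing factor ChREBP, was at -0.32 (adjusted p = 0.0604), or -0.71 after quantile normalization. How much nuclear RNA stayed in the supernatant of the lysate is not given.

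On centred scores, marker lists of the minor cell types of the liver had medians above that of all genes. In bulk extract, fewer cells of a type and less RNA per cell cannot be told apart. Hepatocyte markers had 6 of 15 high and a median of 0.90, and Kupffer cell markers 6 of 15 and 0.80. Endothelial markers had 6 of 15 and 0.53, and stellate cell and fibroblast markers 9 of 15 and 1.11. The low count was 0 in each, against 15.1% high and 14.8% low of all genes. Without WT3 the counts were 6, 3, 5 and 7, and after quantile normalization 0, 3, 3 and 9. Ecm1, a secreted matrix protein of stellate cells, was at 2.87, 2.10 and 2.90, C1qb, a complement subunit of macrophages, at 1.26, Eng, the endothelial TGF beta co-receptor, at 1.43, and Cd163, the haemoglobin scavenger receptor, at -0.22 (adjusted p = 0.28). Of 10 neutrophil markers none had a score, and of lymphocyte, cholangiocyte and red cell markers 3 of 15, 3 of 9 and 4 of 10 had one.

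Translation efficiency fell with coding length. In the quintile of matched genes with the shortest coding sequences (114 to 750 bases), the median was 0.74 and 36.4% were high, whereas in the quintile with the longest (2469 to 26400 bases) it was -0.55 and 1.24% were high. The share of low genes ran the other way, from 4.28 to 30.3%. Across 10872 genes, Spearman's rho was -0.48 (-0.45, -0.47 and -0.44 in WT1, WT2 and WT3). Both scores were taken to be per coding length, so translation efficiency is read as a density of ribosomes and not their number per mRNA. Genes share libraries, so rho is given as a description.

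Genes with an upstream ATG were lower at every coding length. The median was 0.44 in 5421 genes without one, 0.03 with 1, -0.17 with 2, -0.38 with 3 or 4 and -0.49 in 734 genes with 5 or more, and the share of low genes rose from 5.94 to 33.0%. Among the shortest coding sequences the medians were 0.53 with and 0.84 without an upstream ATG, and among the longest -0.76 and -0.19. Of high genes 31.9% had an upstream ATG and of low genes 77.4%. A purine at base -3 from the start codon, part of the consensus around mammalian starts, went with a median of 0.23 against -0.05 without it, whereas a G just after the start codon made little difference (0.18 and 0.17).

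**Figure D5:**
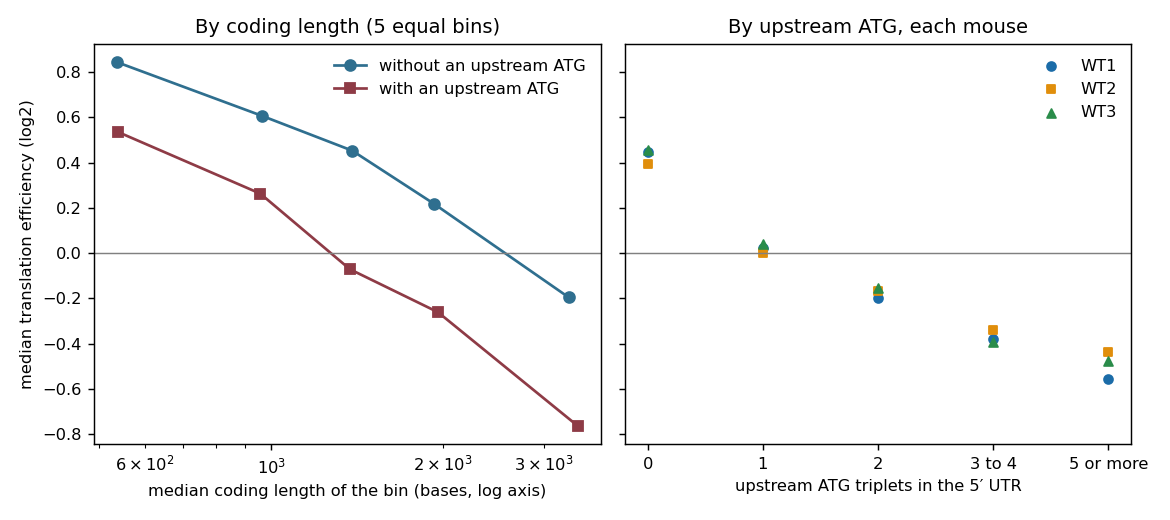
Median translation efficiency (log2, vertical axis) of genes by coding length in 5 equal bins, with and without an upstream ATG (left), and by the number of upstream ATGs in each wild-type mouse (right). The line of genes with an upstream ATG lies below the other in every bin, and the mice lie close together.

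Base composition and UTR length also moved with translation efficiency. The median rose from -0.32 in the quintile of genes with the lowest GC content at codon wobble positions to 0.52 in the quintile with the highest, where 28.3% were high. This relation differed in strength between mice, with rho of 0.36 in WT1, 0.28 in WT2 and 0.25 in WT3. The median was 0.38 for the shortest and -0.28 for the longest quintile of 5′ UTRs, and 0.39 and -0.13 for 3′ UTRs. By RNA level it was near 0 in the lowest quintile (-0.05) and 0.59 in the highest. The 228 genes whose annotated 5′ UTR began with a C and a short run of C or T had a median of 0.29 against 0.19 for the rest. That pattern is not a list of known TOP mRNAs. The lists of known ones had medians of 0.15 (small subunit), -0.07 (large subunit) and 0.01 (other TOP mRNAs), against 0.16 for all genes.

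Most of these genes lay on the same side in the libraries labelled Maf1 KO, from other animals. Maf1 was not among the genes with a score, so the genotype was not checked here. Of the 1753 high genes, 98.1% were above 0 in each of the 3 KO mice, against 45.1% of all genes, and of the 1713 low genes 98.0% were below 0 in each, against 33.8% of all genes. Fth1 was at -2.19, -2.01 and -2.51 in KO1, KO2 and KO4, Odc1 at -1.85, -2.17 and -2.45, and Alb at 1.45, 1.06 and 1.09. For genes that set WT3 apart, Nnmt was there at 0.90, 0.83 and 0.81 and Saa1 at 0.99, 2.13 and 1.87.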

How the data were processed

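Footprint and total RNA libraries were made by the authors from the same liver extract with added Drosophila S2 material. Per the study's methods, tags were aligned to the fly and mouse (mm9) genomes and to coding sequences with up to 1 mismatch, scaled by aligned tags and by trimmed mean of M values, and corrected with the fly signal. The deposited values are log2 scores per transcript (26260 transcripts), and no source used here says whether they hold the fly correction. An offset of a library would cancel in the centring. The mean over transcripts was taken per gene. The steps of low scores gave approximate tags. The mapped columns were 12, and 0 were left out.

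Each library was centred on its median over 11587 genes. Differences within mice were tested with limma 3.58.1 in R 4.3.3 (intercept only, prior variance following the mean footprint score, two-sided), adjusted over all genes by Benjamini-Hochberg, and the fit was tested on simulated data. Because both libraries of a mouse come from 1 extract, mice were paired. Deviations of footprints and RNA of the same mouse from the group means correlated at 0.38, 0.19 and 0.20. The 3 mice carry the number of the labels, which do not say whether they were litter mates.

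A total of 10872 genes (93.8%) were matched to GENCODE coding sequences on NCBIM37, the assembly that mm9 names. Genes named in the text were the 10 highest and 10 lowest called genes with total RNA above the median, on 1 side in every mouse and with no clone-like symbol, up to 2 highest and 2 lowest members of each of 48 lists under that RNA condition, and genes known for translational control or as liver products, of which Amd1, Oaz1 and Fos had no score. Vti1b, Serpina3g, Saa2, Ddi2, Nnmt, Serpina12, Slc35a4, Ifrd1, Smox, Amy2a5 and Cela1 were added after their values were seen. Members, lists and tests were chosen with earlier results of these data known, and lists were described by counts and medians only. Some listed genes are not reported here.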

Additional observations from a re-analysis of the deposited data

How the results depend on the processing

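Centring sets the zero of translation efficiency and so decides the counts most. Without it the offset between footprints and RNA was -1.63, -1.56 and -0.80 in WT1, WT2 and WT3, and 64 genes were high and 6671 low. Every mean then fell by about 1.33, which put 19 of the 68 named genes with a mean above 0 below it. The 15 of these with an adjusted p under 0.05 on centred scores were Alb at -0.13, Ttr at -0.25, Hamp at -0.13, Plg at -0.039, Cps1 at -0.96, Eef2 at -0.82, Gpx1 at -0.73, Sepx1 at -0.20, Hspa5 at -0.20, C1qb at -0.071, Bhlhe40 at -0.17, Cebpb at -0.36, Foxa3 at -0.34, Jun at -0.030 and Polr3k at -0.21. Quantile normalization gave 1318 high and 1450 low genes, kept 56.6 and 72.6% of the first calls, and turned Cps1 (-0.60), Eef2 (-0.35) and Gpx1 (-0.56). By over 1 SD between mice, quantile normalization moved the medians of 39 of 47 lists, the filter 35 and no centring 46. With the filter on low values 886 and 906 of 8008 genes were called. Of these, 886 and 648 were genes of the first calls, so that 50.5 and 37.8% of the first calls were kept. With no minimum size 4287 and 3018 were called. Leaving out each mouse in turn gave 1685 to 1895 high and 1631 to 1694 low genes. Without the replicate block, that is without pairing the libraries of a mouse, 1734 and 1683 were called. The mean of middle genes, a common prior variance, a robust fit and the top transcript moved neither count by over 1.5 times. Restriction to genes without shared or overlapping coding sequence, chosen after seeing the data, left 1288 and 1227. The causes were not tested. Footprint depth limits the lowest values, and with 3 mice the spread of each gene is estimated largely from all genes.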
